A study of Mus musculus with 8 samples.

Results

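Collagens are the proteins of the extracellular matrix whose chains wind into triple helices, and their genes are described here in cardiac mesenchymal stromal cells (cMSCs) of young and aged mice. The members are all genes on the array whose symbol is Col, a number, a and a number (for example Col1a1). The rule found 44 genes with 91 probes, of 37325 genes and gene models with 56605 probes on the whole array. Probes that were well above the local background on all arrays of the young group, of the aged group or of both were kept, and each gene was read from the brightest of its kept probes. Of the 44 collagen chain genes, 34 passed this filter and were tested, among 20226 genes tested in all, and all 34 were well above background on all 8 arrays.

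The cells came from the ventricles of male C57BL/6 mice of 5 months (young) or 20 months (aged) by the labels, and had no further treatment that the labels name. They were sorted as CD45- CD31- Sca-1+ PDGFRα+ cells and lysed without culture. RNA of 4 young and 4 aged pools was labelled with Cy3 and hybridized to 1 array per pool. The methods give 3 mice per pool, but the label code of aged pool 4 can be read as fewer mice, and the methods also name a CX3CR1 gfp/+ reporter line without saying whether it gave any of the pools. Pools keep the numbers of their labels (young pools 2 to 5, aged pools 1 to 4).

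A collagen chain is a long run of Gly-X-Y repeats, a glycine and 2 further residues, and 3 such chains fold together inside the cell after prolyl and lysyl hydroxylation. Fibrillar collagens are then trimmed and assembled into the cross-linked fibres that give the heart wall its stiffness, with type I and type III as the main ones. Type IV chains build the sheet of the basement membrane, type VI chains form beaded filaments around cells, and the fibril associated collagens sit on the surface of fibres. Fibroblast-like stromal cells are the main source of interstitial collagen in the heart.

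The levels below are the log2 of each probe's processed signal minus the 75th percentile of its array, so that 0 stands for that percentile. They serve to compare pools for the same probe, since the brightness of different probes depends on their own sequence. Fold changes are aged over young on the log2 scale, with their standard error (SE). A gene passed the test when its p-value from limma, adjusted by Benjamini-Hochberg over the 20226 genes, was under 0.05.

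Each array probe is a 60-base stretch of the transcript, and some show the repeat that defines the family. In 4 of the 91 collagen probes (4.4%) a glycine codon (GGN) stood at the same place of each 9-base repeat over at least 6 repeats, against 5 of the other 56514 probes (0.00885%). The probes of Col15a1, Col5a3 and Col6a3 are shown with these glycine codons in capitals. Of these genes, only Col15a1 was read from the probe shown. These probes read the triple-helical part of members described below. They lie at chr4:47283786-47283845 (plus strand), chr9:20590066-20590795 and chr1:92689602-92690594 (both minus strand) of mm9, the build of the array files. The last 2 span 730 and 993 bases of the genome for their 60 bases, so each joins exons.
Col15a1: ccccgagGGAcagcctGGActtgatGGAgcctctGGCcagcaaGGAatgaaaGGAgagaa
Col5a3: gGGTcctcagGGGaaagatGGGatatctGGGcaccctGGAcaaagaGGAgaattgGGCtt
Col6a3: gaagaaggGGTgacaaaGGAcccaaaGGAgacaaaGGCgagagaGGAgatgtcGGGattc

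The first 30 bases are shown for the probes of Col12a1 (chr9:79446895-79446954), Col22a1 (chr15:71628920-71628979), Col6a1 (chr10:76171538-76171597) and Col6a2 (chr10:76058931-76058990), all on the minus strand of mm9, because these 4 genes passed the test. No capitals are set in them.
Col12a1: gtttcttagttatcaaagcagttggaaatg
Col22a1: tggcctgaaccccttcaagttcctcatgct
Col6a1: ccacattccccgtaatctgatccaagccag
Col6a2: ttctttgacaggttcatccgctggatctgt

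In aged cMSCs, 2 collagen chain genes rose, the fibril associated Col12a1 and Col22a1, and 3 fell, the type V chain gene Col5a3 and the type VI chain genes Col6a1 and Col6a2. The share that rose was 5.88% of the 34 tested, beside 2.36% of all genes, and the share that fell was 8.82%, beside 0.796% of all genes, so that 14.7% of the members passed beside 3.16% of all genes. The other 29 did not pass the test. A wider set of members had groups that did not overlap. In 14 of the 34 (41.2%) all 4 aged pools lay below all 4 young pools, a pattern that 4.05% of all genes had, and in 3 (8.82%) all aged pools lay above all young pools, beside 6.68% of all genes. The log2 fold change was negative in 23 of the 34 members (67.6%) and in 49.6% of all genes. The median over the 34 members was -0.15 and the median over all genes was 0.0014. At an unadjusted p under 0.05 there were 19 members, and 14.2% of all genes. The median SD within groups was 0.158 on the log2 scale over the members and 0.174 over all genes.

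**Figure D1:**
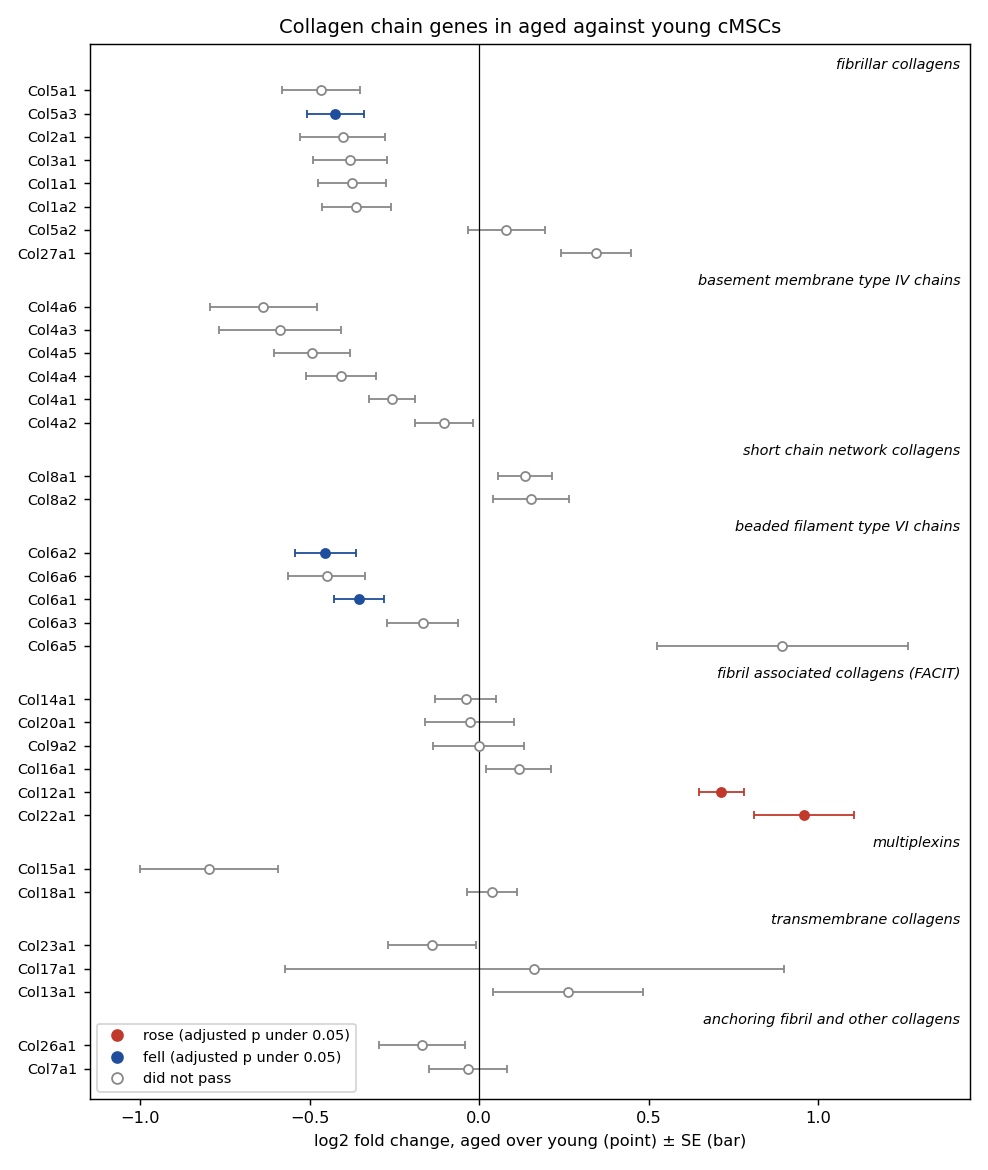
Log2 fold changes (aged over young, points) with their SE (bars) of the 34 collagen chain genes tested, grouped by class, with filled points for genes that passed the test. Most fibrillar, type IV and type VI chain genes lie left of 0, with type VI Col6a5 an exception at 0.90, and the filled points right of 0 are Col12a1 at 0.71 and Col22a1 at 0.96.

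Among the 8 fibrillar collagen genes tested, Col5a3 fell and no gene rose. The groups did not overlap in 7 of the 8, with the aged pools below in 6 and above in 1, and the class median was -0.38. Col1a1 and Col1a2 encode the chains of type I collagen, the bulk of the cardiac fibre. Col1a1 read 7.30, 7.19, 7.13 and 7.13 in young pools 2 to 5 and 6.87, 6.99, 6.80 and 6.58 in aged pools 1 to 4. All aged pools were below all young pools, and pool 4 was the lowest, with a log2 fold change of -0.38 (SE 0.10, limma adjusted p = 0.0945). Col1a2 read 8.55, 8.72, 8.26 and 8.54 in the young pools and 8.17, 8.14, 8.12 and 8.20 in the aged pools. The aged pools lay close together (SD 0.03, n = 4) and the young ones further apart (SD 0.19, n = 4), and the log2 fold change was -0.36 (SE 0.10, limma adjusted p = 0.112). Col3a1, the chain gene of type III collagen, read 7.42, 7.28, 7.14 and 7.52 in the young pools and 6.92, 7.10, 7.04 and 6.78 in the aged pools. Its groups were separated by a gap that was small beside their spread, and the log2 fold change was -0.38 (SE 0.11, limma adjusted p = 0.125).

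Type V collagen lies in the core of type I fibres and sets their diameter. Its chain gene Col5a3 read 5.62, 5.69, 5.60 and 5.50 in the young pools and 5.25, 5.26, 5.20 and 5.01 in the aged pools. Col5a3 fell by 0.42 on the log2 scale (SE 0.08, limma adjusted p = 0.0344), which puts its young mean at 1.34 times its aged mean. The difference was -0.47 among the arrays of slide row 1 and -0.38 among those of row 2. Col5a1 read 6.08, 5.81, 6.06 and 5.82 in the young pools and 5.47, 5.69, 5.48 and 5.26 in the aged pools. The aged pools were all lower, at a log2 fold change of -0.47 (SE 0.11, limma adjusted p = 0.0725). The remaining chain gene, Col5a2, overlapped between groups at 0.08 (SE 0.11).

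Of the other fibrillar genes, Col2a1, best known from cartilage, read 0.52, 0.47, 0.52 and 0.64 in the young pools and 0.23, 0.43, 0.01 and -0.14 in the aged pools. Its aged pools were lower and more spread out, with a log2 fold change of -0.40 (SE 0.13, limma adjusted p = 0.157). Col27a1, a chain of thin fibrils also known from cartilage, ran the other way. It read 0.32, 0.03, 0.39 and 0.26 in the young pools and 0.62, 0.54, 0.75 and 0.48 in the aged pools, a log2 fold change of 0.35 (SE 0.10, limma adjusted p = 0.136) with no overlap. The list of fibroblast markers is given beside these values. Of 9 tested, 0 rose and 1 (Thy1, the gene of CD90) fell, and the median log2 fold change was -0.04. Thy1 was also the 1 marker whose groups did not overlap. The log2 of the summed signal of the 9 was 10.51 to 11.12 in the young and 10.54 to 11.05 in the aged pools. Gsn and Dcn, with young means of 9.46 and 9.39, weigh most in this sum. The part of these markers in the fibrillar collagen values was not tested.

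**Figure D2:**
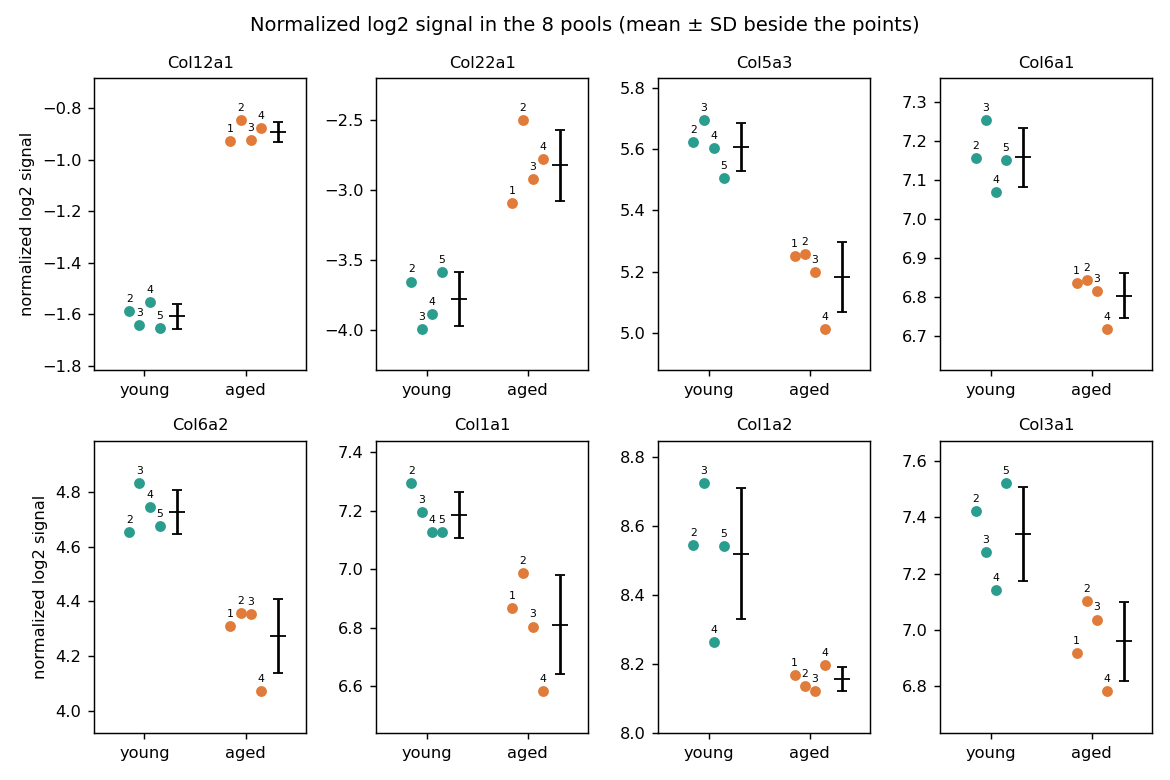
Normalized log2 signal of the 5 collagen genes that passed the test and of Col1a1, Col1a2 and Col3a1 in each pool (points numbered by pool), with the mean and SD (n = 4) beside them; each panel has its own axis. In all 8 panels the young and aged pools do not overlap, and for Col5a3, Col6a1, Col6a2, Col1a1 and Col3a1 aged pool 4 is the lowest.

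All 6 type IV chain genes had a negative log2 fold change, from -0.64 to -0.10, with a median of -0.45, and the aged pools lay below the young in 4 of them. None passed the test, and 5 of the 6 were under an unadjusted p of 0.05. Chains of Col4a1 and Col4a2 form the type IV protomer found in nearly all basement membranes, and those of Col4a3 to Col4a6 form more specialized protomers. Col4a1 read 5.12, 5.13, 5.04 and 5.00 in the young pools and 4.84, 4.78, 4.78 and 4.87 in the aged pools. The spread within each group was small (SD 0.06 young and 0.04 aged, n = 4), and the log2 fold change was -0.26 (SE 0.07, limma adjusted p = 0.0988). For Col4a2 the groups overlapped, at -0.10 (SE 0.09).

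Col4a1 and Col4a2 are transcribed in opposite directions from a common promoter on chromosome 8. In the RefSeq table (GRCm38.p6) their starts are 21 bases apart. The promoter window of Col4a1, 250 bases before to 50 bases after its start (chr8:11312777-11313076, minus strand), holds both starts and is shown for this reason. Capitals mark CCAAT and GGGCGG, searched on both strands (as ATTGG and CCGCCC on the other), each with 1 match. CCAAT is the box bound by NF-Y, and GGGCGG is the box bound by Sp1.
Col4a1: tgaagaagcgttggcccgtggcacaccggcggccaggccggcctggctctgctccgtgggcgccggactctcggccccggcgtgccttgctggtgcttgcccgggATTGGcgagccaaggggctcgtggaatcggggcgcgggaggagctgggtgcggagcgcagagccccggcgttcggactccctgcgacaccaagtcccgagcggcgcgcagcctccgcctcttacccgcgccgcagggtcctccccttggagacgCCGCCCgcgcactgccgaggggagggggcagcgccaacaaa
Over all 32851 windows of the table, 37.4% hold CCAAT and 35.7% hold GGGCGG. Of the 44 collagen genes, 35 were matched in it, by 38 windows, of which 34.2% hold CCAAT and 60.5% hold GGGCGG. These are matches of letters and were not tested against the expression values.

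The minor type IV chains had the larger differences. Col4a4 read 2.33, 2.25, 2.47 and 2.19 in the young pools and 1.85, 2.10, 1.94 and 1.72 in the aged pools (log2 fold change -0.41, SE 0.10, limma adjusted p = 0.0815). Col4a5 read 2.28, 2.24, 2.37 and 2.30 in the young pools and 1.87, 2.04, 1.79 and 1.52 in the aged pools (log2 fold change -0.49, SE 0.11, limma adjusted p = 0.0552). Col4a6 read 2.0, 2.07, 1.82 and 2.06 in the young pools and 1.48, 1.74, 1.19 and 0.99 in the aged pools (log2 fold change -0.64, SE 0.16, limma adjusted p = 0.075). In these 3 genes aged pool 2 was the aged pool nearest to the young ones and aged pool 4 the farthest. In Col4a3 aged pool 2, at 0.49, lay among the young pools (0.34 to 0.94), and the log2 fold change was -0.59 (SE 0.18, limma adjusted p = 0.148). Col4a5 and Col4a6 are also neighbours that point away from each other, on the X chromosome, with starts 1343 bases apart in the RefSeq table.

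Vascular and muscle cells also make basement membrane, so their marker lists are given beside the type IV values. Of 12 endothelial markers tested, 0 rose and 0 fell, and Pecam1, the gene of the sort marker CD31, had a log2 fold change of 0.02. Of 11 mural and smooth muscle markers, 0 rose and 0 fell, with a median of -0.22 and a log2 summed signal of 5.23 to 5.50 in the young and 5.10 to 5.24 in the aged pools. Of 16 cardiomyocyte markers, Tnni3 fell, 13 were lower, the median was -0.40, and the log2 summed signal was 3.81 to 4.13 in the young and 3.07 to 3.76 in the aged pools. Pln also passed the test, but it was well above background on 4 young and only 2 aged arrays and was kept through the young pools alone, so its call gives no support. The part of these lists in the type IV values was not tested, and in such bulk pools fewer cells of a type and less RNA per cell cannot be told apart.

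Of the 5 type VI chain genes tested, Col6a1 and Col6a2 fell and no gene rose. Col6a1 and Col6a2 encode the chains shared by all type VI molecules. The long chain that completes them comes from Col6a3, Col6a4, Col6a5 or Col6a6. Col6a1 read 7.15, 7.25, 7.07 and 7.15 in the young pools and 6.83, 6.84, 6.81 and 6.72 in the aged pools. The groups were far apart beside their SDs of 0.08 and 0.06 (n = 4 each), and Col6a1 fell by 0.35 on the log2 scale (SE 0.07, limma adjusted p = 0.0398). Col6a2 read 4.65, 4.83, 4.75 and 4.68 in the young pools and 4.31, 4.36, 4.35 and 4.07 in the aged pools. Aged pool 4 stood below the other aged pools, and Col6a2 fell by 0.45 (SE 0.09, limma adjusted p = 0.0344). Within slide rows 1 and 2 the differences were -0.43 and -0.28 for Col6a1, and -0.57 and -0.34 for Col6a2.

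The long chains that were tested differed among themselves. Col6a6 read -1.51, -1.44, -1.64 and -1.86 in the young pools and -2.10, -2.18, -1.86 and -2.11 in the aged pools. Young pool 5 and aged pool 3 were nearly level, and the log2 fold change was -0.45 (SE 0.11, limma adjusted p = 0.0817). Col6a3 overlapped, at -0.17 (SE 0.10). Col6a5 had the widest aged spread of the class, from -2.96 to -1.14, against -3.32 to -2.68 in the young pools, and its log2 fold change of 0.90 (SE 0.37) had an adjusted p of 0.318 in limma.

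The calls for the 3 genes that fell were close to the threshold. With young pool 2, young pool 3, aged pool 1, aged pool 3 or aged pool 4 left out, none of the 34 members fell, without young pool 4 only Col1a2 did, without young pool 5 Col5a3 and Col6a6 did, and without aged pool 2 Col4a5 and Col4a6 did. Under the array weights of limma, which give noisier arrays less weight, 12 members fell. The log2 fold changes themselves moved less and stayed between -0.48 and -0.37 for Col5a3, between -0.40 and -0.32 for Col6a1 and between -0.50 and -0.31 for Col6a2 over the 20 alternatives.

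Of the 6 fibril associated (FACIT) genes tested, Col12a1 and Col22a1 rose and none fell. Type XII collagen bridges fibres and matrix in dense and loaded connective tissue, and type XXII collagen is known from tissue junctions such as the one of muscle and tendon. Col12a1 read -1.59, -1.64, -1.55 and -1.65 in the young pools and -0.93, -0.85, -0.92 and -0.88 in the aged pools. Its pools were the most alike within groups among the genes that passed (SD 0.05 young and 0.04 aged, n = 4), and it rose by 0.71 on the log2 scale (SE 0.07, limma adjusted p = 0.00128), a 1.64-fold difference. Col22a1 read -3.66, -3.99, -3.89 and -3.59 in the young pools and -3.10, -2.50, -2.92 and -2.77 in the aged pools. It was near the dim end of the members but well above background on all 8 arrays, and rose by 0.96 (SE 0.15, limma adjusted p = 0.0115), a 1.94-fold difference. A second Col22a1 probe, at chr15:71767749-71768433 (minus strand, mm9), was well above background on 3 young and 3 aged arrays and was not kept. It did not show this difference, with overlapping groups and means of -4.56 in the young and -4.77 in the aged pools.

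Both calls held with each of the 8 pools left out in turn, but not under every other setting. Col22a1 did not pass with normexp background correction, where its log2 fold change was 0.47 (limma adjusted p = 0.0702), with no filter on dim probes (limma adjusted p = 0.0533) or with pool number as a block (limma adjusted p = 0.089). Col12a1 did not pass with that block (limma adjusted p = 0.152). Within slide rows 1 and 2 the differences were 0.74 and 0.69 for Col12a1 and 0.86 and 1.06 for Col22a1. The other FACIT genes overlapped between groups, with log2 fold changes of -0.04 for Col14a1, -0.03 for Col20a1, -0.0018 for Col9a2 and 0.12 for Col16a1. Of 6 cartilage and valve matrix markers tested, 4 were higher and 2 lower in aged pools. Cnmd, Comp and Cilp rose and 0 fell, while Chad was at -0.996 (limma adjusted p = 0.14) and Sox9 at -0.05. The log2 summed signal was 5.34 to 6.02 in the young and 6.66 to 6.72 in the aged pools. The cartilage genes Acan, Matn1 and Matn3 were well above background on none of the 8 arrays. The part of these markers in the values of Col12a1 and Col22a1 was not tested.

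Col15a1 and Col18a1 form the multiplexins, which anchor basement membranes to the matrix around vessels and muscle. Col15a1 read 0.83, 0.93, 0.42 and 1.22 in the young pools and 0.31, 0.19, 0.12 and -0.42 in the aged pools. The groups did not overlap, but each was widely spread (SD 0.33 young and 0.32 aged, n = 4), and the log2 fold change was -0.80 (SE 0.20, limma adjusted p = 0.0829). It was -1.13 within slide row 1 and -0.47 within row 2. A second Col15a1 probe, at chr4:47325273-47325332 (plus strand, mm9), read 0.24, 0.09, -0.11 and 0.24 in the young pools and -0.61, -0.43, -0.46 and -0.99 in the aged pools. Its log2 fold change was -0.74 (SE 0.14), and in the limma fit over the 30824 kept probes, where 1.91% rose and 0.62% fell, its adjusted p was 0.034. Col18a1, the source of endostatin, overlapped between groups at 0.04 (SE 0.07).

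The remaining classes held no gene that passed the test. The network collagen genes Col8a1 and Col8a2, known from vessels, had log2 fold changes of 0.13 and 0.15. Of the membrane-spanning collagens, Col13a1 was at 0.26, Col23a1 at -0.14 and Col17a1 at 0.16, where the Col17a1 probe read from -4.99 to -1.94 over the pools. Col7a1, the anchoring fibril chain of skin, was at -0.03 and Col26a1 at -0.17. Their groups all overlapped.

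**Figure D3:**
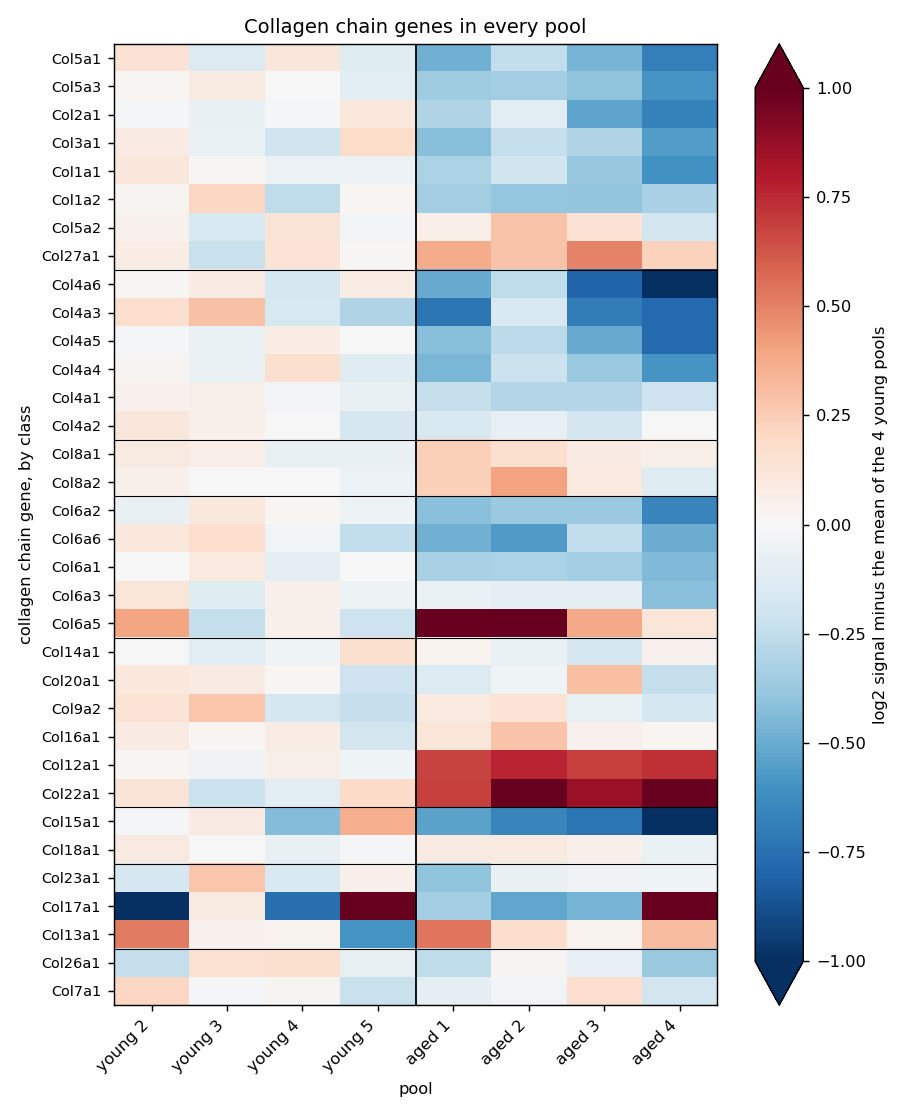
Log2 signal of the 34 collagen chain genes in each pool minus the mean of the 4 young pools, with lines between the classes and the classes in the order of the plot of fold changes; colours are limited to 1 in both directions. The upper blocks (fibrillar, type IV and type VI) are mostly blue in the aged columns, for many genes darkest in aged pool 4, while Col12a1 and Col22a1 are red in all 4.

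The lower values were not spread evenly over the aged pools. Aged pool 4 was the lowest of the 8 pools for 17 of the 34 members, a position it held for 21.3% of all genes, and it was the lowest aged pool for 24 of them, beside 36.0% of all genes. Against the young mean, the median member was at -0.24 in aged pool 1, -0.08 in aged pool 2, -0.18 in aged pool 3 and -0.22 in aged pool 4. Without aged pool 4 the median log2 fold change of the members was -0.15, as with it. Over the 8 settings that leave out 1 pool, this median was between -0.20 and -0.10.

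Chains of 1 molecule are needed in fixed proportions, and 10 pairs of related chains were compared by the log2 ratio of their signals within each array. Col3a1 with Col5a2 (neighbouring genes) and Col15a1 with Col18a1 (the multiplexins) are related genes and not chains of 1 molecule. For the 2 chains of type I collagen the ratios overlapped, with a difference of aged minus young of -0.01 (SD 0.17 young and 0.19 aged, n = 4, exact permutation p = 0.971). In 4 pairs the ratios of the aged pools all lay below those of the young pools. The ratio of Col5a1 to Col5a2 differed by -0.55 on the log2 scale (SD 0.08 young and 0.05 aged). That of Col3a1 to Col5a2, which are neighbours on chromosome 1, differed by -0.46. It rests on the brightest Col3a1 probe (log2 fold change -0.38). The further kept Col3a1 probes were at 0.07 and 0.23, beside 0.08 for Col5a2. The ratio of Col4a1 to Col4a2 differed by -0.15 (SD 0.07 in both groups), and that of Col15a1 to Col18a1 by -0.84. For these 4 pairs the two-sided exact permutation p was 0.0286 (n = 4 a group), the smallest that the 70 ways to split the pools allow, and 0.0714 after Benjamini-Hochberg adjustment over the 10 pairs.

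The other 5 pairs overlapped. Their differences were -0.04 for Col5a1 over Col5a3, -0.18 for Col4a3 over Col4a4, 0.14 for Col4a5 over Col4a6, 0.10 for Col6a1 over Col6a2 and -0.19 for Col6a1 over Col6a3. A p that misses the threshold does not show that chains of a pair moved alike.

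**Figure D4:**
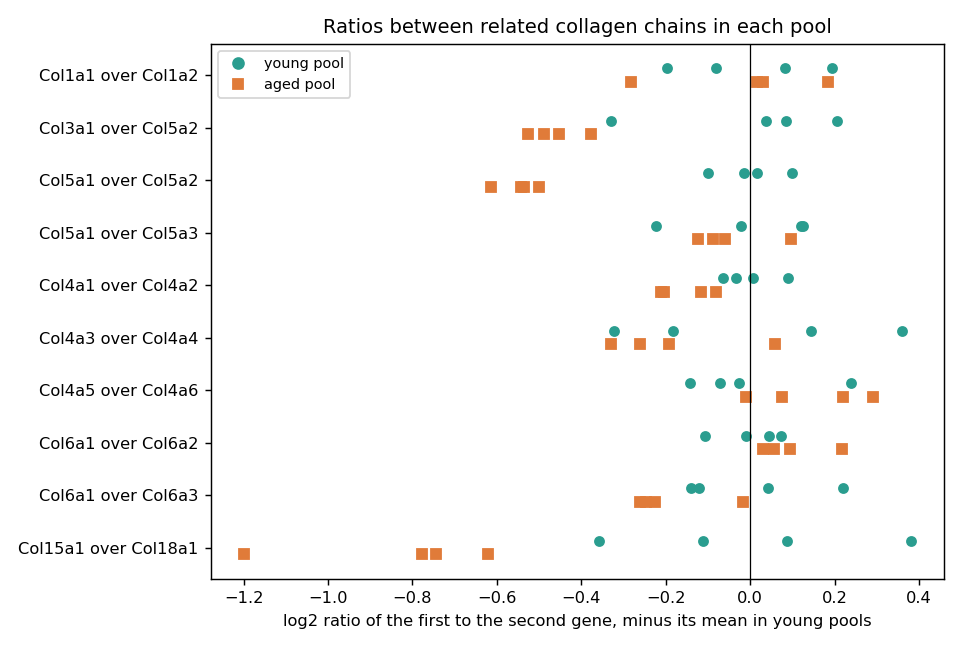
Log2 ratio of the signals of 10 pairs of related collagen chains in each pool, minus its mean in the young pools (circles young, squares aged). The squares lie left of all circles for Col3a1 over Col5a2, Col5a1 over Col5a2, Col4a1 over Col4a2 and Col15a1 over Col18a1, and mix with them for Col1a1 over Col1a2.

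More than 1 probe was kept for 17 of the members, which gives 24 further probes, and 18 of them had a log2 fold change of the same sign as the probe that stands for the gene. For Col1a1 the further probes were at -0.29, -0.35 and -0.43, for Col1a2 at -0.29 and -0.25, for Col5a3 at -0.44, for Col4a4 at -0.42, for Col4a5 at -0.48 and for Col6a2 at -0.21 and -0.26. The Col5a3 value comes from its triple-helix probe printed above, and the one of Col6a3 (-0.28) likewise. Col3a1 stood apart. Its 2 further probes name only Ensembl transcripts and were at 0.07 and 0.23, and the probe of the RefSeq transcript differed from them by -0.45 and -0.62, with no overlap of the ratios (exact permutation p = 0.0286 each, n = 4 a group, and 0.229 after Benjamini-Hochberg adjustment over the 24 further probes).

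For Col12a1 the further kept probe, 790 bases of genome across exons, was dim (-5.50 to -3.54 in the young and -4.55 to -4.04 in the aged pools) and at 0.17 (SE 0.38), and with the mean of both probes in place of the brighter one the Col12a1 log2 fold change was 0.44 with a limma adjusted p of 0.359. A further Col17a1 probe, unlike the brightest, did not overlap between groups, at 0.44 (SE 0.14, limma adjusted p over probes = 0.177).

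The 10 genes that were not kept are Col6a4, Col9a1, Col9a3, Col10a1, Col11a1, Col11a2, Col19a1, Col24a1, Col25a1 and Col28a1, several of which are known from cartilage. The probes of Col10a1, Col19a1, Col24a1 and Col28a1 were well above background on no array. The best probe of Col11a1 and of Col11a2 was so on 2 young and 3 aged arrays, that of Col9a1 on 2 and 2, that of Col9a3 on 1 and 1, and those of Col25a1 on at most 1 array in all each. A Col6a4 probe read 9.58 in young pool 4, -2.39 in aged pool 2 and from -7.61 to -7.07 in the other 6 pools, and the other Col6a4 probe was well above background nowhere.

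Other genes of the collagen pathway were read from 6 lists that hold 101 tested genes, with a median log2 fold change of -0.01. Of the 101, 4 rose and 2, Nid1 and Adgrg6, passed in the lower direction. Over all genes tested, 2.36% rose and 0.796% fell. Among the 26 tested genes of intracellular biosynthesis 0 rose and 0 fell, 18 were lower in aged cMSCs and the median was -0.06. Groups did not overlap in 6 of the 26, a pattern that 4.05% of all genes had with aged pools below and 6.68% with aged pools above. Among these 6, P4ha1, a prolyl 4-hydroxylase, was at -0.42 (limma adjusted p = 0.0751). Serpinh1, the collagen chaperone HSP47, was at -0.39 (limma adjusted p = 0.263). Tmem38b went the other way, at 0.61 (limma adjusted p = 0.0656). Of the 14 genes of procollagen processing and crosslinking 0 rose and 0 fell, 6 were lower and 8 higher in aged cMSCs. Groups did not overlap in 5. Lox, the lysyl oxidase, was higher at 0.62 (limma adjusted p = 0.0603) and Loxl4 at 0.50 (limma adjusted p = 0.184). Lower were Tgm2 at -0.48, Loxl1 at -0.25 and Loxl2 at -0.25 (limma adjusted p = 0.114, 0.141 and 0.235).

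The collagen-binding proteins had the most calls, with Postn and Comp higher and Nid1 lower, of 20 tested. Postn, which encodes periostin, read 4.15, 3.56, 3.80 and 3.67 in the young pools and 4.94, 5.03, 5.05 and 4.96 in the aged pools, and rose by 1.20 (SE 0.13, limma adjusted p = 0.00228). Comp, a pentamer that binds fibril collagens and that is also on the cartilage marker list, rose by 1.04 (SE 0.15, limma adjusted p = 0.00882). Nid1, the linker of type IV collagen and laminin, read 7.05, 6.85, 6.94 and 6.92 in the young pools and 6.55, 6.54, 6.50 and 6.48 in the aged pools. It fell by 0.43 (SE 0.07, limma adjusted p = 0.0177).

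Of the 16 genes of collagen breakdown and uptake, Mmp3, the protease stromelysin 1, rose by 1.30 (SE 0.15, limma adjusted p = 0.00367) and 0 fell. Of the 9 receptor genes, Adgrg6, an adhesion receptor that binds type IV collagen, was well above background on all 4 young and on none of the 4 aged arrays. It was kept through the young pools alone, so its call gives no support, and its signal is given only as a bound, at least 1.69-fold lower in aged pools. With a filter on all 8 arrays it was not tested, and Nid1 was the 1 pathway gene that fell. The lower bound sets the dim pools at the lowest signal of a probe well above background on each array. Of the 16 genes of TGF-beta signalling, the main fibrogenic signal, Cthrc1, a secreted protein of activated fibroblasts, rose by 1.79 (SE 0.36, limma adjusted p = 0.0367) with a wide young spread from -3.92 to -1.99, and 0 fell.

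**Figure D5:**
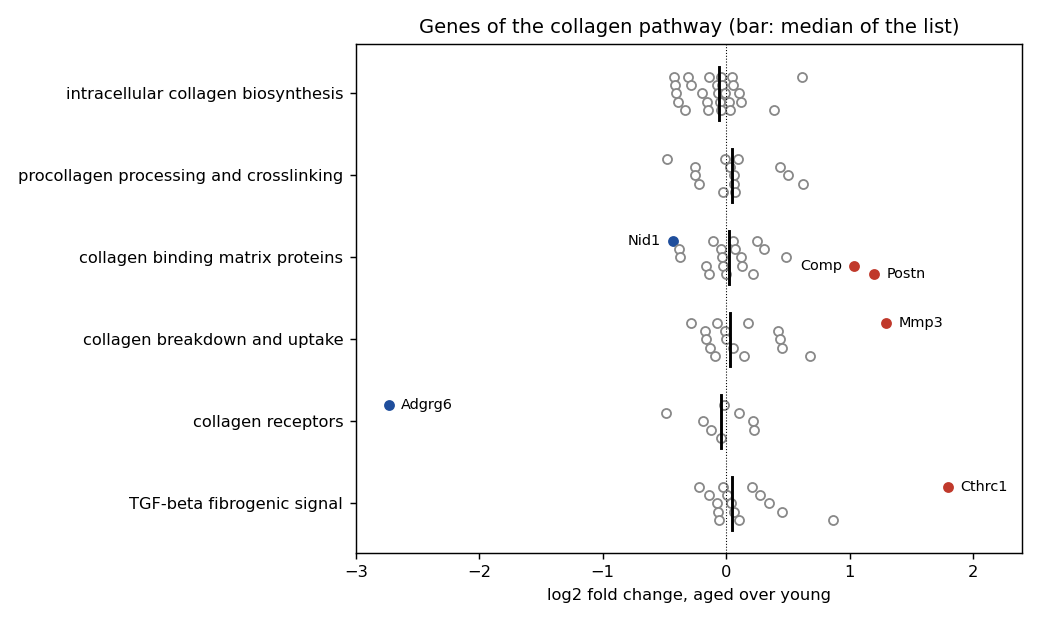
Log2 fold changes (aged over young) of the tested genes of 6 collagen pathway lists, with filled and named points for those that passed the test and a bar at the median of each list. The medians lie between -0.06 and 0.05, and the named points are Postn, Comp, Mmp3 and Cthrc1 on the right and Nid1 and Adgrg6 on the left, where Adgrg6 was not well above background in the aged pools and its point is no measured size.

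Of the genes of the sort markers, Pdgfra and Ly6a (Sca-1) were well above background on all arrays, with log2 fold changes of -0.21 and 0.67 (limma adjusted p = 0.346 and 0.052). Ptprc (CD45) and Pecam1 were also well above background on all arrays, at 0.07 and 0.02. Markers of other cells that rose were Cd14 of 13 macrophage markers tested and Ly6g and Camp of 6 neutrophil markers tested. Dmkn of 5 mesothelial markers tested and Mbp of 4 Schwann cell markers tested rose as well. S100a9 of the neutrophil list also passed, but it was well above background on 3 young and 4 aged arrays and was kept through the aged pools alone. Of the same list, S100a8 (2.48, limma adjusted p = 0.0942), Mpo (0.20) and Elane (0.05) did not pass. Ngp, Cxcr2 and Ltf were well above background on none of the 8 arrays, and Retnlg on 1 aged array. Lower in aged pools were 1 macrophage, 0 neutrophil, 2 mesothelial and 1 Schwann cell markers of those tested. The log2 summed signal of the neutrophil markers was 0.93 to 1.44 in young and 1.87 to 3.40 in aged pools. It includes S100a9, at 2.36 in aged pool 4, so its separation gives no support. For macrophage markers the sum was 4.74 to 5.30 in young and 5.05 to 5.62 in aged pools. The part of these markers in the collagen values was not tested. All 8 arrays lay on 1 slide, with 57.8 to 63.4% of spots well above background and 0 saturated.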

How the data were processed

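RNA of 8 pools of sorted mouse cMSCs (4 young, 4 aged) was hybridized by the authors to 1-colour Agilent SurePrint G3 Mouse arrays, 1 slide with 2 rows of 4 arrays, and read with Feature Extraction 10.10.1.1 (per the file headers). The scanner files deposited by the authors hold the processed signal, an intensity that is background subtracted and spatially detrended but not normalized between arrays. A further table deposited by the authors holds log2 values, whose scaling no source used here states; every column has a median of 8.12, and it was used as an alternative only. Positions are on mm9. Groups, ages and pool numbers are those of the labels. That the pools of a group are separate mice rests on the labels alone, and the p-values measure the spread between these pools.

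The log2 of the processed signal minus the array's 75th percentile was taken over 59305 non-control spots. Spots flagged as outliers were left out (26 probe values with every spot flagged were kept), and spots of a probe were averaged. Of 56605 probes, 32994 were named through their accession in RefSeq's gene table (GRCm38.p6, names only), 10224 by a symbol of that table and 13387 by the file's name alone. Genes were tested by lmFit and eBayes of limma 3.58.1 (R 4.3.3) with group as the only term and Benjamini-Hochberg adjustment over all of them. Exact permutation tests over the 8 pools were two-sided. Precision is limited by how few arrays there are. The code was tested on simulated data. Named are every collagen gene tested and every pathway gene that passed. Values by pool are given for collagen genes that passed or did not overlap and for Col1a1, Col1a2 and Col3a1. P4ha1, Serpinh1, Tmem38b, Lox, Loxl1, Loxl2, Loxl4, Tgm2 and the further probes with values were added after their values were seen. The members, gene lists and chain pairs were chosen with earlier results of these data known. Protein sequences were not used here.

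Alternatives were quantile normalization, median scaling, normexp background correction (offset 50), no filter, a filter on all 8 arrays, the mean of kept probes, probes in place of genes, blocks by pool number, pool code or slide row, array weights, the authors' log2 table and each pool left out.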

Additional observations from a re-analysis of the deposited data

Results flagged for a closer look

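In 7 of 70 groups of 4 pools examined for the collagen genes, 1 pool stood far from the other 3 beside the range of the group. Chance gives about 1 such group in 20. The 70 include Col6a4, which was not tested and was flagged in both groups, so the count cannot be set against that rate. Aged pool 4 was the pool concerned in 3 of them, low for Col6a2 (4.07, the others 4.31 to 4.36) and Col6a3 (5.22, the others 5.55 to 5.58) and high for Col17a1 (-1.94, the others -4.44 to -4.26). Aged pool 2 was high for Col4a3 (0.49, the others -0.13 to -0.06), and aged pool 1 was low for Col23a1 (-3.81, the others -3.48 to -3.44). For Col6a4, which was not tested, 1 probe stood out in young pool 4 (9.58, the others -7.21 to -7.07) and in aged pool 2 (-2.39, the others -7.61 to -7.09).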

How the results depend on the processing

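Over 20 alternatives, 27 of the 34 collagen genes kept the sign of their log2 fold change in all. The 17 whose groups did not overlap were among them, and all 7 others had a log2 fold change of 0.26 or less in size. Of the 17, Col3a1 came close to no change with the mean of kept probes, at -0.027 beside -0.38. The number that rose (2) was 1 with normexp and with no filter (without Col22a1) and with the mean of kept probes (without Col12a1), and 2 with each pool left out. The number that fell (3) was 0 with median scaling and with no filter, 5 with quantile normalization, 6 in the authors' log2 table and 12 with array weights, and 0 to 2 with 1 pool left out. The members' median (-0.15) was -0.045 with the mean of kept probes. Of the pathway genes, the number that rose (4) was 7 over probes, and the number that passed as lower (2, Adgrg6 among them) was 1 with median scaling, normexp, no filter and the filter on all 8 arrays, 7 with array weights and 1 to 3 with 1 pool left out.

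The labels do not say that pools of the same number are pairs. Deviations of same-numbered pools correlated at 0.177, -0.164 and -0.245 over genes, which are too few values to exclude a pairing. With a replicate block by pool number, 0 collagen genes rose, 0 fell, 0 pathway genes rose and 1 fell, and with a replicate block by the mouse numbers in the pool code 1 collagen gene fell (Col15a1) and 1 pathway gene fell; the number block leaves out the 2 pools without a partner. A call lost under these blocks is no sign of a smaller difference.

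Signs turned for Col9a2 with normexp (0.0099) and in the authors' table (0.032), for Col13a1 with the pool number block (-0.026) and for Col18a1 with median scaling (-0.0041). With 1 pool left out the log2 fold change ranged from -0.11 to 0.038 for Col7a1, -0.078 to 0.089 for Col9a2, -0.079 to 0.013 for Col14a1, -0.44 to 0.74 for Col17a1 and -0.14 to 0.042 for Col20a1. The cause of these moves was not tested. Median scaling set the median of all genes at -0.04.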
